A study of Mus musculus with 8 samples.

Results

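Retinoid binding and metabolism is represented by 9 genes chosen by name: the carriers Rbp4, Crabp1 and Crabp2, the membrane receptor Stra6, the enzymes Dhrs3, Aldh1a1, Aldh1a2 and Aldh1a3, and the clearance enzyme Cyp26b1. All 9 were found by Entrez identifier among the 36528 genes counted in each library, and all 9 had enough counts to be tested. Polyadenylated RNA was sequenced from mouse mesothelial cells, the flat cells that line the body cavities, whose tissue of origin is labelled as omentum, a fatty fold of the peritoneum. The data were 4 libraries with knockout of BAP1 (BAP1 KO) and 4 wild-type libraries (WT). BAP1 is a nuclear deubiquitinase that acts on histone H2A and a tumour suppressor of mesothelioma, and the comparison asks how its loss changes gene expression. The labels give neither the allele, the means of deletion nor the age of the mice. They also do not say if each library is an animal or a culture of its own, and the p-values cover the library-to-library spread alone, which may be technical.

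Vitamin A travels in blood as retinol bound to RBP4 and can enter cells through STRA6. Inside the cell retinol is oxidised to retinal, which DHRS3 can turn back into retinol and which the ALDH1A enzymes oxidise irreversibly to retinoic acid. Retinoic acid is held by CRABP1 and CRABP2, activates the receptors RAR and RXR on DNA, and is destroyed by the CYP26 enzymes. Mesothelial and stromal cells of the mouse peritoneum are known sources of retinoic acid through Aldh1a2, and that retinoic acid helps to maintain Gata6 in resident macrophages.

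Libraries held 69.5 to 82.1 M counts in BAP1 KO and 67.1 to 84.9 M in WT. Bap1 itself stood at 54.0, 53.1, 52.0 and 53.7 CPM in BAP1 KO libraries, against 63.1, 62.6, 62.9 and 64.2 CPM in WT libraries, where CPM are counts per M of the normalised library total. Every BAP1 KO library was below every WT library, with a log2 fold change of -0.25 ± 0.03 (SE, edgeR adjusted p = 2.1e-09). The values are sums over whole gene models, and which exons were deleted is unknown here, so this level does not check the deletion itself. The most abundant mesothelial marker, Upk3b, averaged 463.7 CPM in BAP1 KO and 462.1 CPM in WT. Of 14 mesothelial markers tested 6 rose and 6 fell, while over all genes tested 29.0% were higher and 32.1% lower (edgeR adjusted p below 0.05). Muc16 rose to 191% of its WT level, Msln fell to 43.9% and Krt8 to 33.8%, examples chosen after their values were seen. These examples were low next to Upk3b. Muc16 averaged 10.0 CPM in BAP1 KO and 5.27 CPM in WT, Msln 3.06 and 6.95 CPM, and Krt8 0.793 and 2.35 CPM. Calb2, another marker of mesothelium, had at most 2 counts in a library. The most abundant macrophage marker, Lyz2, averaged 11027 CPM in BAP1 KO and 8388 CPM in WT, while of all 12 such markers 6 rose and 6 fell. In bulk RNA such as this, fewer cells of a type and less RNA per cell cannot be told apart.

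BAP1 KO cells had more Crabp2, Dhrs3 and Cyp26b1 transcript and less Aldh1a2 and Aldh1a1 transcript than WT cells. Crabp2, the carrier that hands retinoic acid to its receptor, rose 10.9-fold, Dhrs3 rose 1.30-fold and Aldh1a2 fell to 60.9% of its WT level. The changes of Cyp26b1 and Aldh1a1 were small. In all, 3 of the 9 genes rose, 2 fell and 4 did not pass (edgeR adjusted p below 0.05). Over all 16929 genes tested, 61.1% passed, 29.0% as higher and 32.1% as lower in BAP1 KO, so the share of 55.6% among the 9 is near that background. Libraries of BAP1 KO and WT separated fully for 4 of the 9 genes, beside 53.8% of all genes tested. In a stricter test against a 1.5-fold change (edgeR), 2 of the 9 passed, Crabp2 and Aldh1a2, beside 8.18% of all genes. By size of change the 9 genes were spread out. Of all tested genes, 0.0473% had a larger absolute log2 fold change than Crabp2, 11.7% a larger one than Aldh1a2 and 89.0% a larger one than Aldh1a3.

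**Figure D1:**
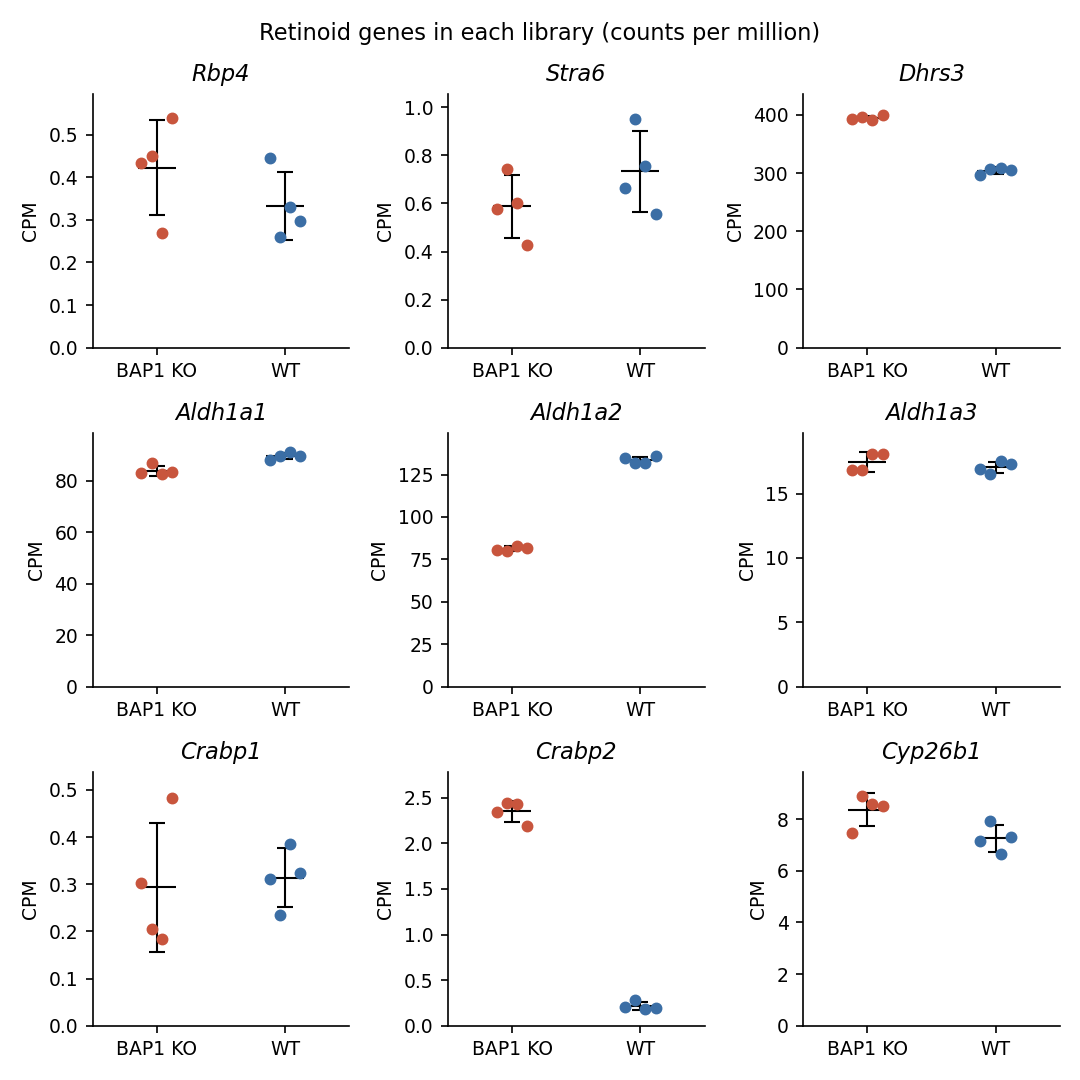
Level of each of the 9 genes in CPM (linear axes from 0) for the 4 BAP1 KO libraries on the left of each panel and the 4 WT libraries on the right, with horizontal bars for means and whiskers for SD. Crabp2 lies at 2.19 to 2.44 CPM in BAP1 KO and at 0.179 to 0.282 CPM in WT, Aldh1a2 and Dhrs3 also separate fully, Aldh1a1 separates narrowly, and Rbp4, Stra6, Crabp1, Aldh1a3 and Cyp26b1 overlap.

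The genes differed widely in abundance, compared here per transcript length as the authors' size-factor-adjusted RPKM. In BAP1 KO cells the order of mean RPKM levels was Dhrs3 (140.3), Aldh1a1 (41.1), Aldh1a2 (35.8), Aldh1a3 (5.11), Crabp2 (2.60), Cyp26b1 (1.37), Crabp1 (0.365), Rbp4 (0.324) and Stra6 (0.138). Of the neighbours in that order, Crabp1 and Rbp4 overlapped between libraries, and the other neighbours did not. In WT cells the order was Dhrs3 (107.2), Aldh1a2 (58.3), Aldh1a1 (43.5), Aldh1a3 (4.95), Cyp26b1 (1.18), Crabp1 (0.387), Rbp4 (0.253), Crabp2 (0.237) and Stra6 (0.171). There the last 4 genes each overlapped the next one in the order. Crabp2 ranked 5 in BAP1 KO and 8 in WT, and Aldh1a1 and Aldh1a2 exchanged places.

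Among the 9 genes, uptake from blood was represented by Rbp4 and Stra6, whose transcripts were close to the limit of these libraries. Lrp2, an uptake receptor outside the 9 that is described below, was abundant, at 126.5 CPM in BAP1 KO and 58.7 CPM in WT. Rbp4, which encodes the plasma carrier of retinol (Entrez 19662; GRCm38 chromosome 19, 38116620 to 38125321), stood at 0.433, 0.449, 0.270 and 0.538 CPM in BAP1 KO libraries, against 0.444, 0.259, 0.331 and 0.298 CPM in WT libraries. These values rest on 22 to 39 counts in BAP1 KO and 22 to 30 in WT, and the genotypes overlap. The log2 fold change was 0.35, with a 95% interval of -0.16 to 0.86 (edgeR adjusted p = 0.23). Stra6, the membrane receptor that takes retinol from RBP4 (Entrez 20897; chromosome 9, 58063793 to 58154004), stood at 0.578, 0.745, 0.601 and 0.427 CPM in BAP1 KO libraries, against 0.665, 0.953, 0.758 and 0.558 CPM in WT libraries. The ranges overlap here too, and the log2 fold change of -0.32 had an interval of -0.72 to 0.07 (edgeR adjusted p = 0.15). Differences within these intervals were not detectable at this depth.

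Dhrs3, the reductase that turns retinal back into retinol and is itself induced by retinoic acid, was the most abundant of the 9 genes in both genotypes. It (Entrez 20148; chromosome 4, 144892534 to 144928209) stood at 392.6, 395.6, 391.4 and 399.2 CPM in BAP1 KO libraries, against 296.4, 306.9, 308.8 and 304.9 CPM in WT libraries. All BAP1 KO libraries lay above all WT libraries. The means were 394.7 ± 3.5 and 304.3 ± 5.5 CPM (SD, n = 4 each), and the log2 fold change was 0.38 ± 0.02 (SE, edgeR adjusted p = 2.8e-16). Between 27187 and 31901 counts in BAP1 KO, and 20044 to 26086 in WT, lie behind these levels.

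Of the ALDH1A enzymes, which make retinoic acid from retinal, Aldh1a2 fell clearly, Aldh1a1 fell slightly and Aldh1a3 did not pass. Aldh1a2 (Entrez 19378; chromosome 9, 71215789 to 71296243), the form that supplies most retinoic acid to the mouse embryo, stood at 80.3, 80.2, 83.0 and 81.8 CPM in BAP1 KO libraries, against 134.5, 132.0, 131.9 and 135.9 CPM in WT libraries. The BAP1 KO libraries lie far below the WT libraries and each genotype spans only a few CPM. The log2 fold change was -0.72 ± 0.02 (SE, edgeR adjusted p = 1.1e-21). Most fibroblast markers were lower in the same libraries: 8 of 10 such markers fell, beside 32.1% of all genes tested. Their log2 fold changes ran from -0.10 (Pdgfra) to -1.05 (Dpt), while Pdgfrb and Pi16 did not pass. The summed level of all 10 fibroblast markers was 16097 to 16693 CPM in BAP1 KO and 19944 to 21334 CPM in WT. Most of it came from Col1a1, Col1a2 and Col3a1, which averaged 7270, 4476 and 3094 CPM in BAP1 KO. Mesothelial markers, which moved both ways, summed to 1348 to 1357 CPM in BAP1 KO and 1274 to 1305 CPM in WT. The part of either cell type in the fall of Aldh1a2 was not tested.

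Aldh1a1 (Entrez 11668; chromosome 19, 20492583 to 20643463) stood at 83.0, 86.8, 82.7 and 83.3 CPM in BAP1 KO libraries, against 88.0, 89.6, 91.0 and 89.7 CPM in WT libraries. The groups do not overlap, but the gap between them is narrow. The log2 fold change was -0.09 ± 0.03 (SE, edgeR adjusted p = 0.0019), and the call was lost when each library's trends with GC content and gene length were removed (-0.03, adjusted p = 0.27). Aldh1a3 (Entrez 56847; chromosome 7, 66390892 to 66427477) stood at 16.8, 16.8, 18.1 and 18.1 CPM in BAP1 KO libraries, against 16.9, 16.5, 17.5 and 17.3 CPM in WT libraries. Its ranges overlap, and the log2 fold change of 0.03 had an interval of -0.05 to 0.12 (edgeR adjusted p = 0.50).

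Per length, the ALDH1A transcripts summed to 82.0 ± 0.54 RPKM in BAP1 KO and 107.0 ± 0.95 RPKM in WT (SD, n = 4 each). Aldh1a2 made up 43.6 ± 0.71% of that sum in BAP1 KO and 54.6 ± 0.60% in WT. Aldh1a1 made up 50.2 ± 0.95% and 40.8 ± 0.56%, so that it was the leading form in BAP1 KO cells and the second in WT cells. Aldh1a3 stayed a minor form, at 6.23 ± 0.26% and 4.64 ± 0.097%.

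**Figure D2:**
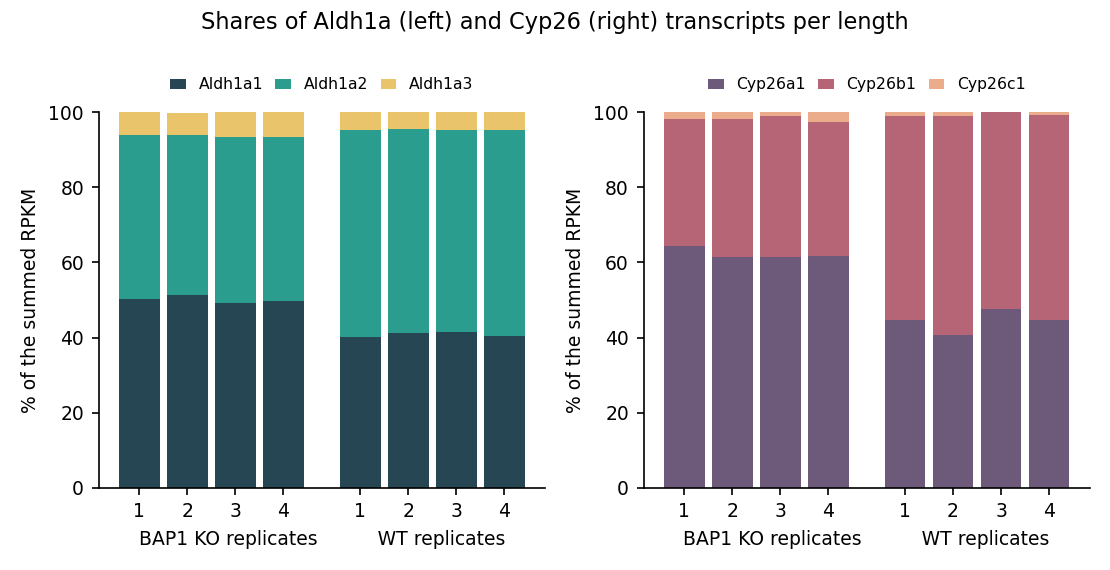
Share of each gene in the summed RPKM of its enzyme family, in percent, for each BAP1 KO library (left bars) and WT library (right bars); the left panel shows the ALDH1A enzymes and the right panel the CYP26 enzymes. Aldh1a2 takes 42.6 to 44.3% of the ALDH1A sum in BAP1 KO libraries and 53.9 to 55.2% in WT libraries, and Cyp26a1 takes 61.4 to 64.4% of the CYP26 sum in BAP1 KO libraries and 40.7 to 47.7% in WT libraries.

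The cellular carriers of retinoic acid parted from each other. Crabp2 (Entrez 12904; chromosome 3, 87948693 to 87953372) stood at 2.35, 2.44, 2.43 and 2.19 CPM in BAP1 KO libraries, against 0.207, 0.282, 0.179 and 0.195 CPM in WT libraries. The lowest BAP1 KO library is several times above the highest WT library. The counts behind these levels were 159 to 198 in BAP1 KO and 13 to 24 in WT. The log2 fold change was 3.42 ± 0.16 (SE, edgeR adjusted p = 6.4e-18), with a 95% interval of 3.10 to 3.75. On the scale of log2 (RPKM + 1), which compresses low genes, it was 1.54. Of the 16929 tested genes, 3 had a higher log2 fold change.

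Crabp1 (Entrez 12903; chromosome 9, 54764748 to 54773110), a close relative often linked to the breakdown of retinoic acid, stood at 0.303, 0.205, 0.184 and 0.483 CPM in BAP1 KO libraries, against 0.311, 0.235, 0.386 and 0.324 CPM in WT libraries. The WT values lie within the range of the BAP1 KO values. Its log2 fold change of -0.10 had an interval of -0.69 to 0.48 (edgeR adjusted p = 0.77), and its sign changed without BAP1 KO replicate 2 (0.03), BAP1 KO replicate 3 (0.07) or WT replicate 3 (0.01). Of the summed RPKM of both carriers, Crabp2 made up 87.8 ± 5.5% in BAP1 KO and 38.3 ± 9.5% in WT (SD, n = 4 each). That sum was 2.97 ± 0.047 RPKM in BAP1 KO and 0.623 ± 0.033 RPKM in WT.

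Transcripts of 2 enzymes that destroy retinoic acid, Cyp26b1 and Cyp26a1, rose. Cyp26b1, a cytochrome P450 that hydroxylates retinoic acid (Entrez 232174; chromosome 6, 84571414 to 84593908), stood at 7.47, 8.92, 8.59 and 8.53 CPM in BAP1 KO libraries, against 7.17, 7.93, 6.65 and 7.32 CPM in WT libraries. BAP1 KO replicate 1 lies below the highest WT library, and the other BAP1 KO libraries lie above all WT libraries. The log2 fold change was 0.20 ± 0.06 (SE, edgeR adjusted p = 0.006), and 0.12 on the scale of log2 (RPKM + 1). Its relative Cyp26a1 rose to 4.24 ± 0.11 CPM in BAP1 KO, against 1.72 ± 0.07 CPM in WT (SD, n = 4 each), a log2 fold change of 1.30 ± 0.09 (SE, edgeR adjusted p = 2.8e-14), or 0.79 on the scale of log2 (RPKM + 1). Cyp26c1, chosen after its values were seen, had too few counts to be tested, with 5 to 11 in BAP1 KO libraries and 0 to 3 in WT libraries. Per length, the CYP26 transcripts summed to 3.81 ± 0.15 RPKM in BAP1 KO and 2.15 ± 0.063 RPKM in WT, and Cyp26b1 made up 36.0 ± 1.6% and 54.9 ± 2.5% of these sums.

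**Figure D3:**
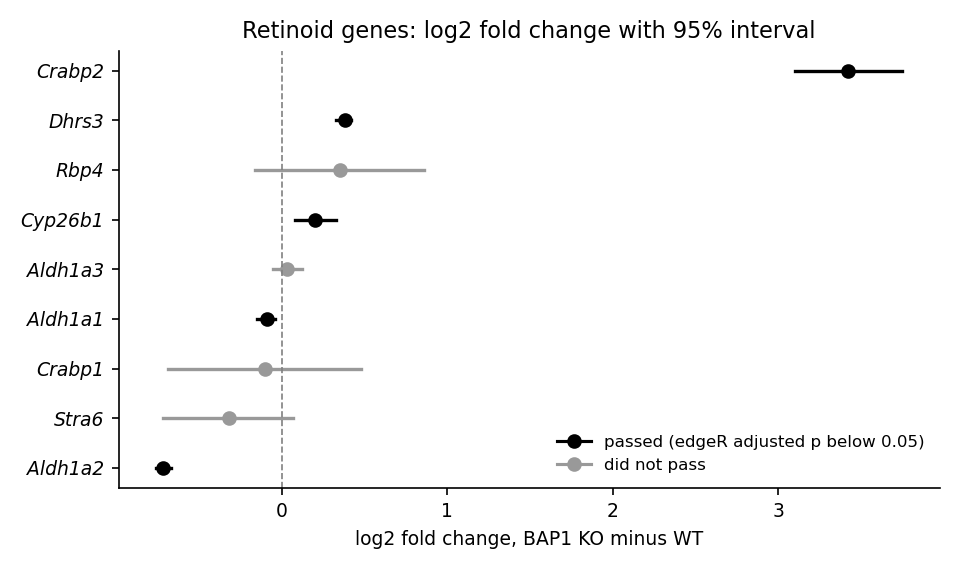
Log2 fold change of each of the 9 genes, BAP1 KO minus WT, with its 95% interval from the edgeR fit; black marks genes that passed at an adjusted p below 0.05 and grey marks those that did not. Crabp2 stands alone at 3.42, Aldh1a2 lies at -0.72, and the wide intervals belong to Rbp4, Stra6 and Crabp1, the genes with the fewest counts.

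Known retinoid genes outside the 9 were read from lists of the same pathway. Together they held 82 genes in the files, of which 62 were tested, 22 rose, 24 fell and 16 did not pass. Their median log2 fold change was -0.04, beside -0.0046 over all genes tested. The rises and falls ran both ways within most steps of the pathway. Each count here and in the retinoid lists below stands beside 61.1% of all genes tested that passed, 29.0% as higher and 32.1% as lower. The share that passed was slightly below this background for the retinol and retinal enzymes, and above it for the other retinoid lists. Whether any list differs from all genes tested was not tested.

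Among the other carriers, uptake proteins and storage enzymes, 2 of 9 tested rose and 6 fell, with a median of -0.26. Fabp5, a fatty acid carrier that can also bind retinoic acid, fell to 19.5 ± 0.56 CPM in BAP1 KO, against 29.8 ± 2.1 CPM in WT (SD, n = 4 each), a log2 fold change of -0.61 ± 0.04 (SE, edgeR adjusted p = 1.7e-13). Lrp2, megalin, an endocytic receptor that can take up RBP4 with its retinol, rose to 126.5 ± 3.7 CPM in BAP1 KO, against 58.7 ± 1.8 CPM in WT, a log2 fold change of 1.11 ± 0.03 (SE, edgeR adjusted p = 6.6e-25). Lpl, a lipase that releases lipids from circulating particles and acts on retinyl esters among them, rose by 0.63 ± 0.02. Among adipocyte markers 6 of 9 tested rose and 3 fell, beside 29.0% and 32.1% of all genes tested. Lep was at 0 in every library, and the summed level of the adipocyte markers was 111.1 to 115.0 CPM in BAP1 KO and 110.0 to 113.0 CPM in WT. Without Fabp4, the most abundant, it was 68.6 to 72.7 CPM in BAP1 KO and 53.4 to 58.6 CPM in WT. The part of adipocytes in the level of Lpl was not tested.

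Lrat, which esterifies retinol for storage, had at most 5 counts in a library and was not tested. The lowest log2 fold changes of this list, named after their values were seen, belonged to Bco2, a carotenoid-cleaving enzyme, at -2.20 ± 0.20, and Stra6l, a second RBP4 receptor of the mouse, at -1.13 ± 0.15 (SE). Bco2 stood at 0.26 ± 0.059 CPM in BAP1 KO and 1.19 ± 0.19 CPM in WT, and Stra6l at 0.633 ± 0.047 and 1.38 ± 0.18 CPM (SD, n = 4 each). Exons of Bco2 share 161 bases with Gm47077 on the other strand, and the library kit does not mark strand.

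Among the other enzymes listed for oxidation and reduction of retinol and retinal, 2 of 16 tested rose and 7 fell, with a median of -0.14. Rdh10, the main retinol dehydrogenase of the mouse embryo, stood at 43.3 ± 0.33 CPM in BAP1 KO and 42.7 ± 0.75 CPM in WT (SD, n = 4 each), with a log2 fold change of 0.02 and an interval of -0.04 to 0.08 (edgeR adjusted p = 0.59). With the GC and length trends taken out it passed as higher, at 0.10 (adjusted p = 0.0012). Rdh11, a retinal reductase, fell by 0.63 ± 0.03 on the log2 scale. Dhrs9 fell by 0.67 ± 0.06, Dhrs7 by 0.55 ± 0.04, and Retsat, which saturates retinol, by 0.28 ± 0.04. Exons of Retsat share 650 bases with Gm45053 on the other strand, and exons of Cyp2s1, Rai14 and Gata6 also share bases with a gene on the other strand.

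All 3 tested enzymes of the list of other clearance genes rose, which were Cyp26a1, Cyp2s1 at 0.23 ± 0.05 (SE) and Cyp1b1 at 0.05 ± 0.02. Cyp1b1 was abundant, at 554.6 and 535.1 CPM, and has many substrates besides retinoids. Its call (edgeR adjusted p = 0.04) held in 11 of 19 alternative settings. Cyp1b1 lost it with library totals alone, for example, at an adjusted p of 0.14.

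**Figure D4:**
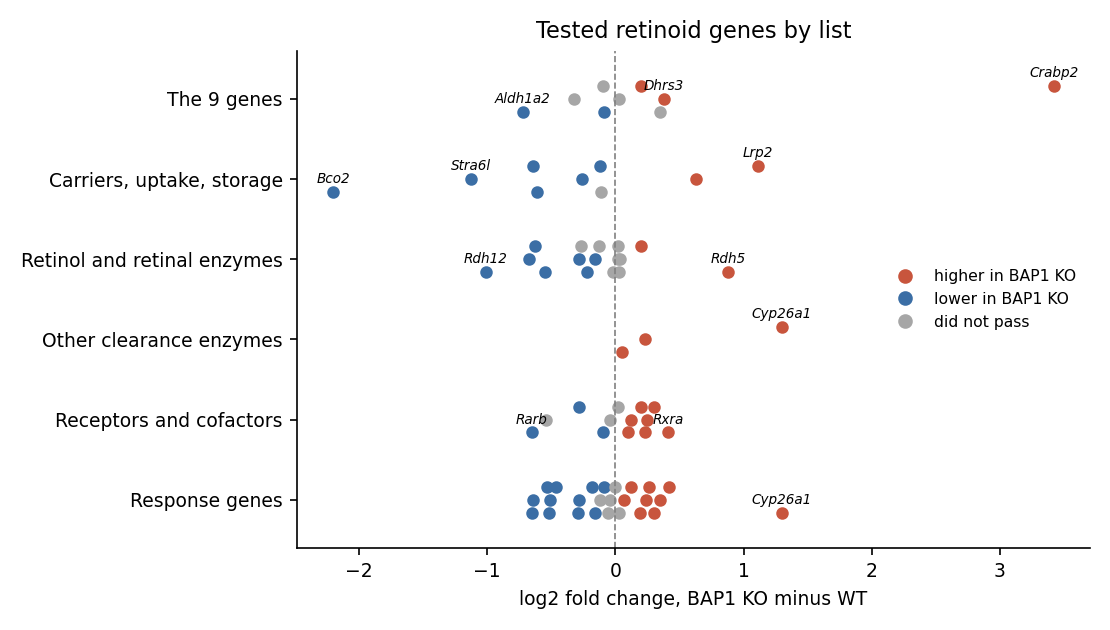
Log2 fold change, BAP1 KO minus WT, of every tested gene of the 9 and of the other retinoid lists, 1 point a gene, coloured by whether it passed as higher or lower or did not pass (edgeR adjusted p below 0.05); vertical scatter within a row has no meaning. Rarb and Cyp26a1 are among the genes that stand in more than 1 list, and rises and falls appear in every row with the exception of the clearance enzymes.

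Of the receptors and their cofactors, 7 of 13 tested rose and 3 fell, with a median of 0.10. Rxra, the shared partner of many nuclear receptors, rose to 186.6 ± 1.5 CPM in BAP1 KO, against 140.3 ± 3.0 CPM in WT (SD, n = 4 each), a log2 fold change of 0.41 ± 0.02 (SE, edgeR adjusted p = 2.5e-16). Rara rose by 0.20 ± 0.04, Rarg by 0.23 ± 0.03 and Rxrb by 0.12 ± 0.04. The coactivator Ncoa2 rose by 0.25 ± 0.03. Rarb, the retinoic acid receptor best known for being induced by its own ligand, fell to 11.9 ± 0.36 CPM in BAP1 KO, against 18.6 ± 0.29 CPM in WT, a log2 fold change of -0.65 ± 0.04 (SE, edgeR adjusted p = 2e-14). In GENCODE vM21, exons of Rarb share 1793 bases with Top2b on the opposite strand, and reads there cannot be told apart without strand. In RefSeq the genes do not overlap, as Top2b ends at 16430787 and the span of Rarb runs from 16430839. The annotation used for counting is not stated, so it is unknown if Top2b reads entered the Rarb count. Top2b stood at 148.0 ± 7.6 CPM in BAP1 KO and 151.5 ± 4.3 CPM in WT (edgeR adjusted p = 0.33).

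Textbook targets of retinoic acid moved both ways as well. Of 25 tested response genes, 9 rose and 11 fell, with a median of -0.06. Rai14, named for its induction by retinoic acid, fell to 51.8 ± 0.54 CPM in BAP1 KO, against 71.5 ± 1.4 CPM in WT (SD, n = 4 each), a log2 fold change of -0.46 ± 0.03 (SE, edgeR adjusted p = 1.2e-15). Gata6, named after its values were seen, was slightly lower, at 115.6 ± 1.6 CPM in BAP1 KO and 123.0 ± 3.4 CPM in WT (SD, n = 4 each), a log2 fold change of -0.09 ± 0.02 (SE, edgeR adjusted p = 0.0019). Bulk RNA does not show which cells carried Gata6. Macrophage markers numbered 6 higher and 6 lower of 12 and summed to 16433 to 16964 CPM in BAP1 KO and 14103 to 14413 CPM in WT. Lyz2 alone carried the higher sum, since the other 11 markers summed to 5733 to 5803 CPM in BAP1 KO and 5858 to 5983 CPM in WT. The part of macrophages, mesothelial cells or any other cell type in the level of Gata6 was not tested. Each marker count in this paragraph stands beside 29.0% of all genes tested that rose and 32.1% that fell. Of the markers of other cells, 3 of 8 smooth muscle markers rose and 3 fell, and Acta2, the most abundant, did not pass at 5659 CPM in BAP1 KO and 5652 CPM in WT. Of the endothelial markers 5 of 6 tested fell, and their summed level was at most 32.2 CPM in BAP1 KO libraries and at most 47.6 CPM in WT libraries. Of the lymphocyte markers 2 of 5 tested rose and 1 fell, and the 60.0% that passed are near the 61.1% of all genes tested. Lymphocyte markers summed to 3.28 to 3.63 CPM in BAP1 KO and 5.10 to 5.31 CPM in WT. Without Cd4, the one that fell, they summed to 2.12 to 2.67 CPM in BAP1 KO and 1.73 to 2.04 CPM in WT.

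Cyp26a1 and Rarb are the classical cases of a retinoic acid response element close to the transcription start, and they moved in opposite directions here. In the 250 bases before and 50 after each RefSeq start on GRCm38.p6, both strands were searched for the DR5 element. It was defined as a pair of half-sites on one strand with NNNNN between them, where a half-site was AGGTCA or its variant AGTTCA, or else GGGTCA or its variant GGTTCA. It was found in 32 of 32851 windows, or 0.0974%. Of the 59 other retinoid genes with a window, these 2 held it. The windows are shown with the half-sites of the DR5 element in capitals, each written 5′ to 3′ along the gene's strand. The Cyp26a1 window is chr19:37697558-37697857 on the plus strand, where the element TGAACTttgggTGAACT lies on the other strand and begins 32 bases before the start. The Rarb window is chr14:16575427-16575726 on the minus strand, where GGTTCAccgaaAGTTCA begins 53 bases before the start. Neither start is the outermost of its gene, since the annotated genes begin upstream at 37697738 (Cyp26a1) and 17082331 (Rarb). Levels given here sum over whole gene models, so they do not show the use of these starts. A further single half-site of the Rarb window stays in lower case.
Cyp26a1: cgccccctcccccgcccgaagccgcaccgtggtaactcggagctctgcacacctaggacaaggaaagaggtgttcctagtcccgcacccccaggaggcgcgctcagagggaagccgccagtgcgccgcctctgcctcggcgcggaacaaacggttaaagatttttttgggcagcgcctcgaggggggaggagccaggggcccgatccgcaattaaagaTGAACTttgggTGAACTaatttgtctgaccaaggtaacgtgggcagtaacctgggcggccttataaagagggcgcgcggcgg
Rarb: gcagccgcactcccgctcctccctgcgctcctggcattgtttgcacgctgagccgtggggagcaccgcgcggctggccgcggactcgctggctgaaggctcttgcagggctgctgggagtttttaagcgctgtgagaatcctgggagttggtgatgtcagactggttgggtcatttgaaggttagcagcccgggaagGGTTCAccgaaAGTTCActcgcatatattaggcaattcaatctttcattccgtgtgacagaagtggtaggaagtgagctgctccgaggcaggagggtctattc

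The 7 members with a window, in 14 windows, held no DR5 element in these bases. Crabp2 and Aldh1a3 had no window, so neither was searched. Half-site pairs with other spacings were not looked for in any gene. A single half-site was present in 3 of the 14 windows, against 43.7% of all windows. Windows of Dhrs3, the most abundant member that rose, and Aldh1a2, the member with the larger fall, are shown for comparison with the pair above. Nothing is in capitals because nothing matched. The Dhrs3 window is chr4:144892577-144892876 and the Aldh1a2 window chr9:71215539-71215838, both on the plus strand and on GRCm38.p6. The Aldh1a2 window is 78.0% G and C with 50 CG dinucleotides, and this Dhrs3 window is 58.7% G and C with 21.
Dhrs3: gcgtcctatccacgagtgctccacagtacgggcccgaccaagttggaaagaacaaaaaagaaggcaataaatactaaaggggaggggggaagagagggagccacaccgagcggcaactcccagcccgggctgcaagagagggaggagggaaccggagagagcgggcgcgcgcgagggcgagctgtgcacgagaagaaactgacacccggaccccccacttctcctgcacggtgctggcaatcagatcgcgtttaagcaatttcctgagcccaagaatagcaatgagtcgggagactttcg
Aldh1a2: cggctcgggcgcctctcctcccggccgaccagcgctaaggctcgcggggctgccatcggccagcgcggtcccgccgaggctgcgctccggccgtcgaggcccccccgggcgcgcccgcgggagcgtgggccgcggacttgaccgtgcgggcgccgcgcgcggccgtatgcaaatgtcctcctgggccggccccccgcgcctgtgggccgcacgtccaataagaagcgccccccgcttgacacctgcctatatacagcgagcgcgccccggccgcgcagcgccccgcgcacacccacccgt

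Many genes divided the 8 libraries in the same way as Crabp2 or Aldh1a2, whatever the size of their change. The 5 genes with the highest Pearson correlation to Crabp2, on log2 CPM over 8 libraries, were Plppr5 (0.9996), Alas2 (0.9992), Rassf4 (0.9991), Nrp2 (0.9986) and Tgfbr2 (0.9984). Those most like Aldh1a2 were Galnt18 (0.9992), B3gnt3 (0.9992), Gsdme (0.9992), Lmcd1 (0.9991) and Wdfy1 (0.9989). The libraries form a cluster for each genotype, so these values mostly describe that separation and not its size. Log2 fold changes ran from 0.18 (Nrp2) to 1.47 (Alas2) in the first set, against 3.42 for Crabp2. In the second set they ran from -0.75 (Galnt18) to -3.12 (Wdfy1), against -0.72 for Aldh1a2. Above 0.99 there were 277 genes for Crabp2 and 619 for Aldh1a2, of 14428 compared.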

How the data were processed

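RNA was column-purified with DNase digestion, 0.5 µg went into TruSeq RNA v2 libraries, and single-end reads of 50 bp came from a HiSeq4000, per the labels' protocols. GSNAP and GRCm38 are named in the submitters' processing notes; the annotation and the counting program are not stated there. Per the file headers, the authors counted reads with a single alignment in each gene model (counts) and also deposited RPKM adjusted by a size factor. Symbols came from RefSeq (31049 identifiers) and GENCODE vM21 (78 more) and were missing for 5401.

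The quasi-likelihood F test of edgeR 4.0.16 in R 4.3.3 was run on the counts, with robust dispersion, TMM factors and filterByExpr. P-values were adjusted by Benjamini-Hochberg over all 16929 genes tested and read at 0.05. Each log2 fold change is BAP1 KO minus WT, with SE as the fold change over the square root of F. The script was tested on simulated data. Levels of different genes were compared per length as RPKM, whose ratio to counts differed between libraries only by 1 factor each. Alternatives used limma 3.58.1, DESeq2 1.42.0 and sva 3.50.0. Exon overlaps came from GENCODE vM21, in which exons of 0 members overlap another gene; promoter windows came from RefSeq.

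The members and lists were chosen with earlier results of these data known. Beside the members, the text names at most 4 genes a list, those of lowest adjusted p among called genes that average 1 CPM or more in a genotype, and always a set that includes Lrat, Rdh10, Cyp26a1 and the receptors; some genes this rule selects are not reported here. Libraries held 67.1 to 84.9 M counts; the labels name no batch.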

Additional observations from a re-analysis of the deposited data

Results flagged for a closer look

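Within a genotype, 2 of 72 sets of 4 libraries held a value far from the other 3, where chance flags about 1 in 20 such sets. Aldh1a1 in BAP1 KO replicate 2 stood at 86.8 CPM, above the other BAP1 KO libraries and still below every WT library. Rarg in BAP1 KO replicate 1 stood at 64.3 CPM, above the other BAP1 KO libraries.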

How the results depend on the processing

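The calls of Crabp2, Aldh1a2, Dhrs3 and Cyp26b1 held in all 19 alternatives that test for any change: other scaling (RLE, upper quartile, plain library totals), low counts kept, a filter at CPM above 1 in 4 or more libraries, DESeq2, limma-voom, 1 surrogate variable, log2 RPKM with a pseudocount of 0.1 or 1, removal of GC and length trends, and each of 8 libraries left out. Removal of GC and length trends, added after seeing the data and based on 85.1% of tested genes, ended the call of Aldh1a1 (-0.03). Crabp1 ran from -0.45 to 0.07 as libraries were left out, and the cause was not tested. The stricter CPM filter gave no value for Crabp1, Rbp4 and Stra6. Crabp2 passed that filter only through its BAP1 KO libraries (2.19 to 2.44 CPM, against 0.179 to 0.282 CPM in WT). Its call in that setting is therefore no separate support.

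Against a 1.5-fold change (edgeR glmTreat) 1384 genes passed, or 8.18%, among them 2 members, Crabp2 and Aldh1a2. That stricter test ended the calls of Dhrs3 (0.38), Cyp26b1 (0.20), Aldh1a1 (-0.09) and Bap1 (-0.25) by its construction. It left 4 carriers and uptake genes, 1 clearance enzyme, 2 response genes, 0 retinol and retinal enzymes (4 at an unadjusted p below 0.05, 9 by the main test) and 0 receptors and cofactors (1 unadjusted, 10 by the main test). Depth limits Rbp4, Stra6 and Crabp1, read from 15 to 81 counts a library. No paired analysis was possible because the labels give no replicate numbers; those used here follow accession order and only name libraries.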
